A study of Homo sapiens with 6 samples.

Results

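The transcription factors TP63, SOX2, KLF4, KLF5, GRHL2, GRHL3, ZNF750, OVOL1 and TFAP2A, which build and maintain squamous epithelium, were followed in KYSE150, a long-used human line of esophageal squamous cell carcinoma (ESCC). They were chosen by name as known regulators of this epithelium, at a time when earlier results of these data were known. They make up 9 of the 67140 gene identifiers in the count table. KYSE150 cells carrying the control hairpin (shCtrl) were compared with KYSE150 cells carrying a hairpin against the long noncoding RNA (lncRNA) AC007128.1 (shAC007128.1), with 3 samples each. All samples were grown in RPMI medium with fetal bovine serum, and poly-A RNA was sequenced in pairs of reads. The design addressed what changes in the ESCC transcriptome when AC007128.1 is depleted. Because 1 hairpin served against AC007128.1, the depletion of its target and any other action of that hairpin cannot be told apart. The labels do not say whether the samples were separate cultures, so the p-values measure the spread between these samples, which may be technical.

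Squamous epithelium renews itself from a basal layer, whose cells stop dividing, move upward and build a tough surface. The p63 protein of TP63 is the master regulator that holds basal cells in the squamous lineage, and SOX2 works beside it in the basal layer of the esophagus. KLF5 is active in dividing basal cells, whereas KLF4, GRHL3, ZNF750 and OVOL1 promote the step into differentiation. GRHL2 keeps epithelial junction genes on, and TFAP2A, which encodes AP-2 alpha, acts with p63 at keratinocyte genes. In esophageal squamous tumors TP63 and SOX2 are often gained together, since both genes lie on the long arm of chromosome 3.

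Total counts ranged from 55764405 to 78610457 per sample, and 19254 genes passed the filter on low counts, all 9 factors among them. Levels are given as CPM, counts relative to library size with edgeR's TMM factors, and changes as log2 fold changes of shAC007128.1 over shCtrl from edgeR's quasi-likelihood test, with p-values adjusted by Benjamini-Hochberg over all genes tested. Calls used the study's limits, an adjusted p no higher than 0.05 together with a log2 fold change of 1 or more in either direction, and genes past the adjusted p alone were counted as well. AC007128.1 itself had 69, 33 and 53 counts in the shCtrl samples and 18, 37 and 15 in the shAC007128.1 samples. The groups overlapped, since shAC007128.1 replicate 2 lay above shCtrl replicate 2. Its level was 0.712 ± 0.273 CPM (SD, n = 3) against 0.417 ± 0.224 (SD, n = 3), a log2 fold change of -0.77 (SE 0.51, adjusted p = 0.271). A two-sided exact permutation test of 3 against 3 samples gave p = 0.2, where 0.1 is the smallest possible. The paper reports lower AC007128.1 by quantitative PCR in ESCC cells carrying its hairpin, a measure separate from these low counts. All 8 squamous markers examined, among them KRT5 and TRIM29, stood above 1 CPM in every sample. Their summed level was 1621 to 1671 CPM in shCtrl and 2394 to 3064 CPM in shAC007128.1. The markers did not move together. KRT5, KRT6A, SFN and PERP were higher by edgeR's adjusted p, DSG3 was lower (log2 fold change -1.09), and KRT17, TRIM29 and PKP1 did not pass.

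SOX2 was the single factor called, and it rose about 10.6-fold. KLF4, TFAP2A, GRHL3 and ZNF750 fell by less than the fold limit while passing the adjusted p, and TP63, KLF5, GRHL2 and OVOL1 did not pass. Among all genes tested, 15.7% were called in either direction, 5.57% higher and 10.1% lower. With the adjusted p alone the shares were 40.8% in either direction, 21% higher and 19.8% lower. By that second rule 1 of the 9 factors was higher and 4 were lower. The samples of the groups did not overlap for 7 factors, SOX2 and KLF5 being higher and KLF4, GRHL2, GRHL3, ZNF750 and TFAP2A lower. Over all genes such separation was seen for 55.2%, with 27% higher and 28.2% lower, so separation by itself was common. The median log2 fold change of the 9 factors was -0.27, beside -0.0236 over all genes tested. In bulk RNA, fewer cells expressing a factor and less RNA of it per cell cannot be told apart.

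**Figure D1:**
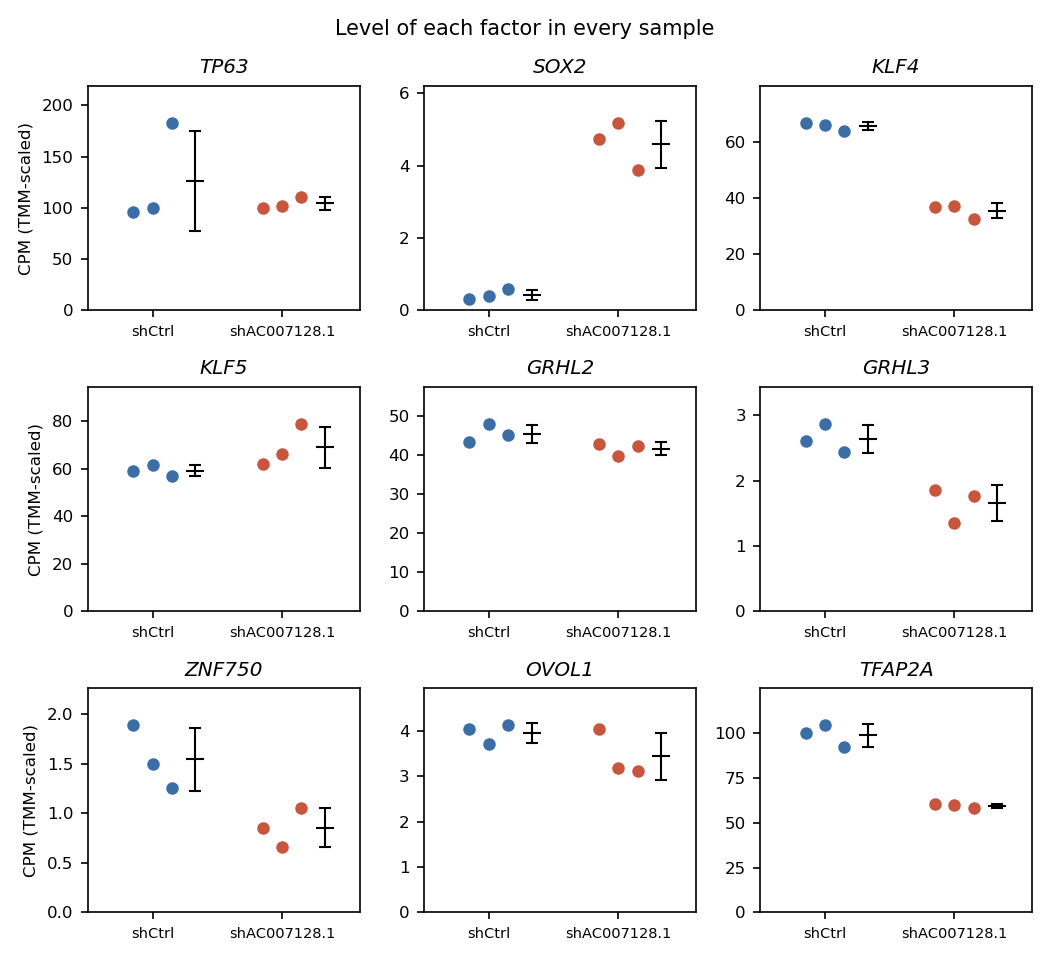
Level of each factor in CPM in the 3 shCtrl and 3 shAC007128.1 samples, with points for samples in replicate order and bars for the mean and SD. SOX2 lay below 0.6 CPM in every shCtrl sample and at 3.89 CPM or more in every shAC007128.1 sample, and the TP63 spread in shCtrl came from replicate 3.

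SOX2 encodes the HMG-box factor that specifies the foregut and later the basal layer of the esophagus. It lies on hg38 at chr3:181711925-181714436 on the plus strand and has 1 exon. It was low in shCtrl, with 24, 31 and 40 counts, and reached 266, 284 and 226 counts in shAC007128.1. On the CPM scale these were 0.328, 0.385 and 0.590 in shCtrl and 4.73, 5.17 and 3.89 in shAC007128.1, so the lowest shAC007128.1 sample stood several times above the highest shCtrl sample. The log2 fold change was 3.40 (SE 0.28, 95% confidence interval 2.74 to 4.07, adjusted p = 0.000146). SOX2 sits within SOX2-OT, a lncRNA gene on the same strand that shares 0 exonic bases with it. SOX2-OT had 22, 12 and 13 counts in shCtrl and 9, 21 and 4 in shAC007128.1, with a log2 fold change of -0.07 (SE 0.72, adjusted p = 0.947). The counts of SOX2 rose, while those of the surrounding gene, at 4 to 22, were too few to show any but a large change.

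KLF4, a zinc-finger factor that drives exit from the cell cycle and barrier formation, was lower in every shAC007128.1 sample. Its levels were 66.7, 66.2 and 64.0 CPM in shCtrl and 37.0, 37.1 and 32.5 CPM in shAC007128.1. The shCtrl samples lay within a narrow range, well apart from the others. KLF4 fell to 54.2% of control (log2 fold change -0.88, SE 0.09, 95% confidence interval -1.09 to -0.68, adjusted p = 0.000274). The gene lies at chr9:107484852-107490482 on the minus strand. The lncRNA gene ENSG00000289987 on the opposite strand covers 357 of its exonic bases (9.7%) and is not among the gene identifiers counted.

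TFAP2A, at chr6:10393186-10419659 on the minus strand, encodes AP-2 alpha of the ectoderm and epidermis. It stood at 99.6, 104 and 91.8 CPM in shCtrl and at 60.3, 59.6 and 57.9 CPM in shAC007128.1. Every shAC007128.1 sample was thus below every shCtrl sample, and the 3 agreed closely. TFAP2A fell to 60.2% of control (log2 fold change -0.73, SE 0.08, 95% confidence interval -0.92 to -0.55, adjusted p = 0.000419). Its antisense genes TFAP2A-AS1 and TFAP2A-AS2 share 438 and 941 exonic bases with it (5.3% and 11.4%), and strand use in counting is not given in the sources used here. TFAP2A-AS2 had 232, 305 and 211 counts in shCtrl and 74, 135 and 83 in shAC007128.1, and fell as well (log2 fold change -0.95, SE 0.28, adjusted p = 0.0295). TFAP2A-AS1 did not pass (log2 fold change -0.29, SE 0.36, adjusted p = 0.561). These antisense counts are small beside the 3274 to 8376 counts of TFAP2A, and reads of either strand cannot be told apart.

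The promoters of SOX2, TFAP2A and KLF4, the 3 factors with the smallest adjusted p, are shown as the sequence that precedes transcription of the genes that moved. The sequences come from RefSeq on GRCh38.p14 and give the 150 bases before the start site, 5′ to 3′ on the strand of the gene. Capitals mark the GC box (GGGCGG), the CCAAT box (CCAAT) and the TATA box (TATAAA), searched on both strands. The SOX2 window is chr3:181711775-181711924 (plus strand), that of TFAP2A is chr6:10419660-10419809 (minus strand) and that of KLF4 is chr9:107489770-107489919 (minus strand). The KLF4 window lies within the GENCODE span of the gene but on none of its exons, as another annotated start lies farther upstream.
SOX2: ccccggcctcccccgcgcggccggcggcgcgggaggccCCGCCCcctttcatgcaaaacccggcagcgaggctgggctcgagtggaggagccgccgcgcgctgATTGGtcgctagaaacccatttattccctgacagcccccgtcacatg
TFAP2A: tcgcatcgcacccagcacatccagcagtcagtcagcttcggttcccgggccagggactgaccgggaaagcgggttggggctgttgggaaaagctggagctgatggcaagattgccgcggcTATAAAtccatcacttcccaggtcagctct
KLF4: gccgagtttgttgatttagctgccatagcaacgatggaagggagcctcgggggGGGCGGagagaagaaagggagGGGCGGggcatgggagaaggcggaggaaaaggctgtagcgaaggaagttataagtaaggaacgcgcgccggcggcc
The SOX2 window held 1 GC box and 1 CCAAT box, both read on the other strand, and was 71.3% G or C. The TFAP2A window held 1 TATA box and 59.3% G or C, and the KLF4 window 2 GC boxes and 60.7% G or C. So the 3 windows had no element in common among these except the GC box of SOX2 and KLF4. Over the 250 bases before the start in 35116 RefSeq promoters, 42.6% held a GC box, 32% a CCAAT box and 10.7% a TATA box. In that longer span KLF4 held 4 GC boxes. A second RefSeq start of TFAP2A, not shown, held no GC, CCAAT or TATA box there. A match is a description of letters and not a site of binding.

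GRHL3 and ZNF750 act late in keratinocyte differentiation and were present at a few CPM or less. GRHL3, a grainyhead factor needed for the epidermal barrier, stood at 2.61, 2.86 and 2.43 CPM in shCtrl and 1.85, 1.35 and 1.77 CPM in shAC007128.1. The groups did not overlap, and GRHL3 fell to 62.9% of control (log2 fold change -0.67, SE 0.21, 95% confidence interval -1.16 to -0.18, adjusted p = 0.0371). The call by adjusted p was lost without each of the shCtrl replicates 1 (0.0927), 2 (0.12) and 3 (0.0693) and without shAC007128.1 replicate 2 (0.0953) in the same edgeR test. The gene lies at chr1:24199558-24364482 on the plus strand. STPG1 on the opposite strand overlaps its span but shares 0 exonic bases, and fell by a similar amount (log2 fold change -0.71, SE 0.12, adjusted p = 0.00276).

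ZNF750, a zinc-finger factor induced by p63 that switches on late differentiation genes, is often mutated in ESCC. Its levels were 1.89, 1.49 and 1.25 CPM in shCtrl and 0.854, 0.655 and 1.05 CPM in shAC007128.1, which rest on 85 to 138 and 36 to 61 counts. The shAC007128.1 samples were all below the shCtrl samples, by a small margin. ZNF750 fell to 55.3% of control (log2 fold change -0.85, SE 0.29, 95% confidence interval -1.52 to -0.18, adjusted p = 0.048). In edgeR's test the adjusted p was above 0.05 without each of the shCtrl replicates 1 (0.161), 2 (0.105) and 3 (0.06) and the shAC007128.1 replicates 1 (0.0997) and 2 (0.123). Without shAC007128.1 replicate 3 the log2 fold change was -1.04 (adjusted p = 0.0361), which is past the fold limit too. ZNF750, at chr17:82829434-82840022 on the minus strand, shares 222 exonic bases (7%) with TBCD on the opposite strand, and TBCD rose (log2 fold change 0.71, SE 0.09, adjusted p = 0.000872). TBCD had 2601, 2970 and 2467 counts in shCtrl and 3430, 3491 and 3117 in shAC007128.1, far more than ZNF750. Strand use in counting is not given, so reads of either gene on the shared bases cannot be told apart. The part of TBCD reads in the ZNF750 counts was not tested.

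TP63, the lineage's master regulator, lies at chr3:189631389-189897276 on the plus strand. It stood at 96.0, 99.6 and 182 CPM in shCtrl and 99.9, 102 and 111 CPM in shAC007128.1. A single sample, shCtrl replicate 3, stood far above the other 5, which lay close together. The log2 fold change was -0.27 (SE 0.24, 95% confidence interval -0.83 to 0.29, adjusted p = 0.406), and without shCtrl replicate 3 it was 0.09 (adjusted p = 0.525). Thus the direction for TP63 rested on 1 sample. The highest shCtrl sample was 1.90 times the lowest, a range as wide or wider in 3.29% of 10057 genes with a mean of at least 10 CPM, whose median range was 1.10 times. The table holds 1 value per gene, so the TP63 isoforms with and without the transactivation domain were not told apart.

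Over the 6 samples, the 3 genes whose log2 CPM was most like that of TP63, out of 12970 genes, were RBAK (Pearson r = 0.979), PIP4K2C (0.972) and ARCN1 (0.972). These correlations describe 6 samples that share libraries and carry no test. RBAK stood at 31.4, 30.4 and 62.4 CPM in shCtrl and between 28.1 and 35.1 CPM in shAC007128.1. As with TP63, shCtrl replicate 3 was the high sample for all 3 genes, which follows from choosing them by their likeness to TP63.

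KLF5, a factor of dividing basal cells, stood at 59.2, 61.4 and 56.9 CPM in shCtrl and 62.3, 66.4 and 78.7 CPM in shAC007128.1. The shAC007128.1 samples were all above the shCtrl samples, the nearest pair differing by less than the range within either group. Its log2 fold change of 0.22 (SE 0.10, 95% confidence interval -0.02 to 0.47, adjusted p = 0.129) did not pass. KLF5 lies at chr13:73054976-73077541 on the plus strand.

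GRHL2, the grainyhead factor that keeps epithelial junction genes active, lies on chromosome 8. It stood at 43.2, 47.7 and 45.0 CPM in shCtrl and 42.8, 39.7 and 42.1 CPM in shAC007128.1. The groups touched without overlapping, and the log2 fold change of -0.13 (SE 0.08, 95% confidence interval -0.32 to 0.07, adjusted p = 0.267) did not pass. OVOL1, a zinc-finger repressor that restrains both proliferation and mesenchymal genes, lies at chr11:65787063-65797214 on the plus strand. Its levels were 4.05, 3.72 and 4.13 CPM in shCtrl and 4.04, 3.19 and 3.11 CPM in shAC007128.1. The groups overlapped, with a log2 fold change of -0.20 (SE 0.18, 95% confidence interval -0.62 to 0.21, adjusted p = 0.404). The lncRNA gene ENSG00000255404 on the opposite strand shares 1039 exonic bases (27.3%) with OVOL1 and had 0 counts in every sample.

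**Figure D2:**
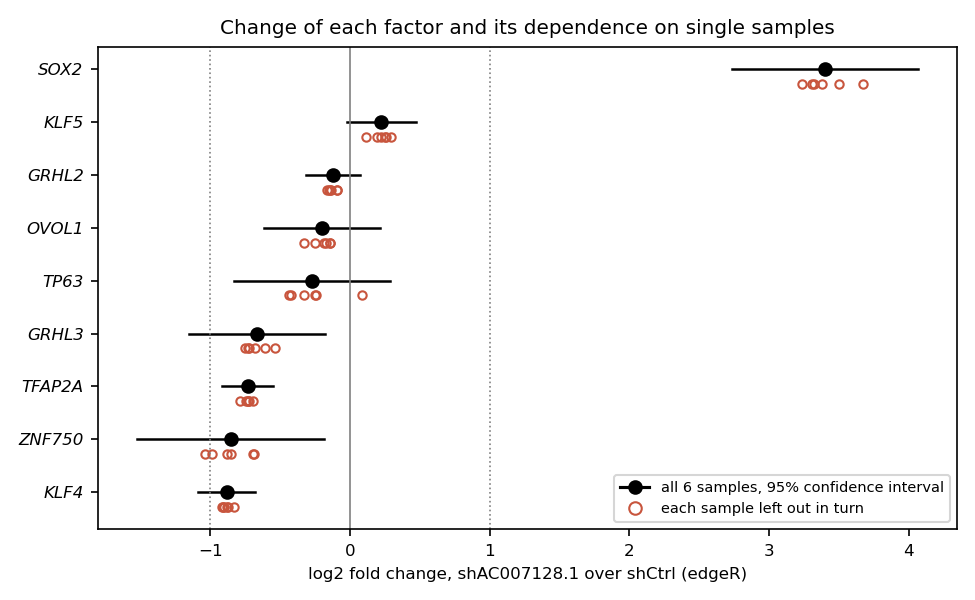
Log2 fold change of each factor, shAC007128.1 over shCtrl, from edgeR. Black points and lines show all 6 samples with the 95% confidence interval, open points each sample left out in turn, and dotted lines a log2 fold change of 1 in size. SOX2 stayed above 3 throughout, and TP63 crossed 0 when shCtrl replicate 3 was left out.

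To compare levels between factors, counts were divided by exonic length and by each sample's total of such values (TPM). That length joins all annotated exons of a gene, 8220 bases for TFAP2A and 3662 for KLF4, and can exceed the length of single transcripts. The order between factors therefore depends on it. By CPM, which takes no account of length, TFAP2A at 98.5 stood above KLF4 at 65.6 and KLF5 at 59.2 in shCtrl. In shCtrl the order was KLF4 at 57.0 ± 0.168 TPM, TP63 at 53.9 ± 22.1, KLF5 at 51.2 ± 1.48 and TFAP2A at 38.1 ± 1.88 (SD, n = 3 each). GRHL2 followed at 23.8 ± 1.37 TPM and was the last factor above 20 TPM. OVOL1 at 3.32 ± 0.219, GRHL3 at 1.96 ± 0.140, ZNF750 at 1.55 ± 0.292 and SOX2 at 0.553 ± 0.187 TPM came far below. TP63 could not be placed against KLF4 or KLF5, since its samples lay on both sides of theirs, and GRHL3 and ZNF750 overlapped. Among 19156 genes in shCtrl, KLF4 lay at percentile 87.1 and SOX2 at percentile 12.1. In shAC007128.1 the order was KLF5 at 59.1 ± 6.49 TPM, TP63 at 43.8 ± 1.95, KLF4 at 30.6 ± 2.87, TFAP2A at 22.7 ± 0.912 and GRHL2 at 21.6 ± 0.473 (SD, n = 3 each). SOX2 at 5.77 ± 0.951 TPM then stood above OVOL1 at 2.85 ± 0.420, GRHL3 at 1.22 ± 0.176 and ZNF750 at 0.847 ± 0.176. TFAP2A and GRHL2 overlapped there, as did GRHL3 and ZNF750.

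**Figure D3:**
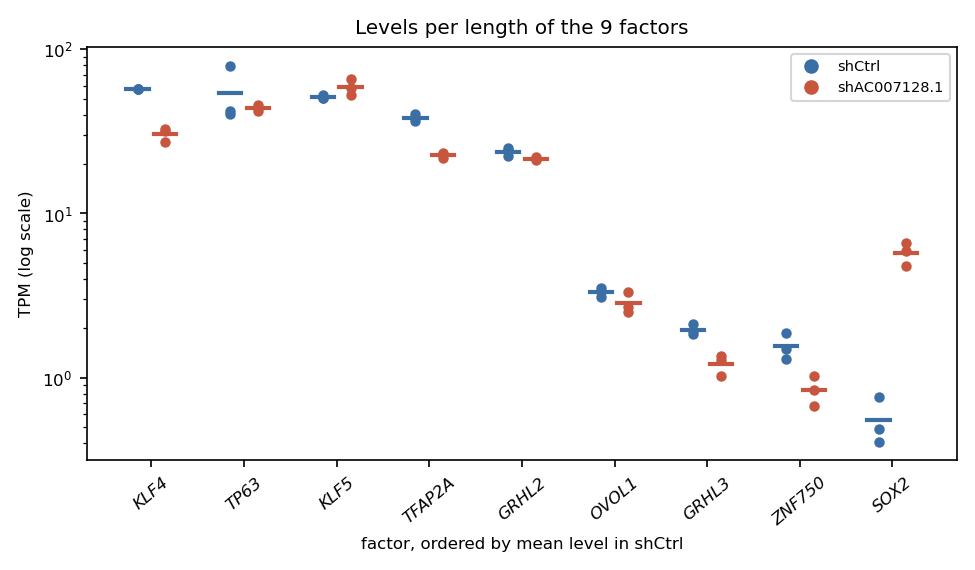
TPM of the 9 factors on a log axis, ordered by their mean in shCtrl, with points for samples and lines for group means (n = 3 each). SOX2 was the lowest factor in shCtrl at 0.553 TPM and stood sixth in shAC007128.1 at 5.77 TPM, while KLF4 passed from rank 1 to rank 3.

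Ratios of TPM within pairs of factors put these shifts in each sample. The size of a ratio depends on the exonic lengths used, while its change between groups does not. The 3 pairs were chosen after their values were seen, so the ratios are descriptions. The ratio of KLF4 to KLF5, the differentiation and proliferation members of one family, was 1.13, 1.08 and 1.13 in shCtrl and 0.597, 0.562 and 0.415 in shAC007128.1. KLF4 thus exceeded KLF5 in every shCtrl sample and was below it in every shAC007128.1 sample, a mean log2 change of -1.11. For TP63 to SOX2 the ratio was 98.3, 86.8 and 104 in shCtrl and 7.09, 6.62 and 9.59 in shAC007128.1, a mean log2 change of -3.65. The high TP63 sample was also the highest of its group for SOX2, so its ratio lay near the others. The ratio of GRHL2 to GRHL3 was 11.7, 11.8 and 13.0 in shCtrl and 16.3, 20.8 and 16.8 in shAC007128.1.

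Other transcription factors of stratified epithelia were described by counts, from a list of 27 of which 21 were tested. By both limits 1 rose and 3 fell, and by the adjusted p alone 5 were higher and 8 lower, with a median log2 fold change of -0.06. Over all genes tested, 5.57% were higher and 10.1% lower by both limits, and 21% and 19.8% by the adjusted p alone. CEBPB, a leucine-zipper factor of the differentiating layers, fell from 375 ± 7.28 to 85.7 ± 11.8 CPM (SD, n = 3 each), a log2 fold change of -2.13 (SE 0.11, adjusted p = 2.96e-05). EHF, an ETS factor of epithelial differentiation, fell from 16.0 ± 0.215 to 4.31 ± 0.484 CPM (log2 fold change -1.90, SE 0.13, adjusted p = 7.9e-05). KLF10, a family member of KLF4 induced by TGF-beta, rose from 15.9 ± 0.237 to 53.3 ± 6.27 CPM (log2 fold change 1.74, SE 0.11, adjusted p = 4.95e-05). CEBPB and EHF, like KLF4 and TFAP2A, were lower, and KLF10 was higher.

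Genes of the basal layer, where TP63 and SOX2 act, were all tested, and 5 of 23 rose and 1 fell by both limits. By the adjusted p alone 13 were higher and 4 lower, with a median log2 fold change of 0.42. Over all genes tested, 5.57% were higher and 10.1% lower by both limits, 21% and 19.8% by the adjusted p alone, and the median was -0.0236. KRT14, the basal keratin, rose from 59.9 ± 2.48 to 291 ± 32.1 CPM (log2 fold change 2.28, SE 0.10, adjusted p = 1.89e-05). PERP, a p63 target of the desmosome, rose from 164 ± 1.02 to 474 ± 20.5 CPM (log2 fold change 1.54, SE 0.06, adjusted p = 1.6e-05). FGFBP1, which releases fibroblast growth factors, rose from 42.1 ± 2.31 to 157 ± 6.84 CPM (log2 fold change 1.90, SE 0.08, adjusted p = 1.73e-05). The gene lower by both limits was DSG3, the basal desmoglein (log2 fold change -1.09, SE 0.09, adjusted p = 0.000122), named after its value was seen. Without shAC007128.1 replicate 1, ITGA3, also named after its value was seen, passed the fold limit as a second lower gene (log2 fold change -1.06, adjusted p = 0.00049).

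Suprabasal and cornified genes, the outputs of KLF4, GRHL3, ZNF750 and OVOL1, were often too low to test, and 13 of 29 were tested. By both limits 2 rose and 1 fell, and by the adjusted p alone 4 were higher and 3 lower, with a median log2 fold change of 0.84. That median is the value of CDSN, which had 25, 47 and 4 counts in shCtrl and 44, 55 and 0 in shAC007128.1 and did not pass (SE 1.23, adjusted p = 0.622). Among all genes tested, 5.57% were higher and 10.1% lower by both limits, and 21% and 19.8% by the adjusted p alone. KLK5, a protease of the shedding surface, rose from 42.5 ± 2.83 to 113 ± 16.5 CPM (log2 fold change 1.41, SE 0.12, adjusted p = 0.000179). KRT13, the keratin of the suprabasal esophagus, rose from 0.827 ± 0.279 to 1.93 ± 0.583 CPM (log2 fold change 1.22, SE 0.35, adjusted p = 0.0275). ALOX12B, a lipoxygenase of the barrier, fell from 1.22 ± 0.297 to 0.343 ± 0.257 CPM (log2 fold change -1.82, SE 0.52, adjusted p = 0.028). The latter pair rested on few counts. The adjusted p of KRT13 lay above 0.05 without each of the shCtrl replicates 2 (0.0947) and 3 (0.0922) and the shAC007128.1 replicates 1 (0.0697) and 2 (0.0825). That of ALOX12B did so without each of the shCtrl replicates 1 (0.0942), 2 (0.0591) and 3 (0.0564) and the shAC007128.1 replicates 2 (0.0763) and 3 (0.0693). EVPL, named after its value was seen, was called higher without each of the shCtrl replicates 2 (log2 fold change 1.11, adjusted p = 0.0337) and 3 (1.07, 0.043) and without shAC007128.1 replicate 3 (1.14, 0.016).

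Epithelial junction and splicing genes, which depend on GRHL2 and OVOL factors, were all tested, and 0 of 20 rose and 2 fell by both limits. By the adjusted p alone 8 were higher and 5 lower, with a median log2 fold change of 0.15. Shares over all genes tested were 5.57% higher and 10.1% lower by both limits, and 21% and 19.8% by the adjusted p alone. CLDN7, a claudin of the lateral membrane, fell from 99.7 ± 24.4 to 44.5 ± 4.90 CPM (log2 fold change -1.16, SE 0.19, adjusted p = 0.00263). CLDN1, a tight-junction claudin near TP63, had 73, 42 and 39 counts in shCtrl and 0, 0 and 8 in shAC007128.1 (log2 fold change -3.85, SE 1.08, adjusted p = 0.0251). Its adjusted p lay above 0.05 without each of the shCtrl replicates 1 (0.0938), 2 (0.056) and 3 (0.0592) and the shAC007128.1 replicates 1 (0.0512) and 2 (0.0557). The most highly expressed members, CDH1 (E-cadherin) and DSP (desmoplakin), were higher by the adjusted p with log2 fold changes of 0.21 (SE 0.06, adjusted p = 0.0187) and 0.23 (SE 0.05, adjusted p = 0.0117). CLDN4, named after its values were seen, had 33286, 19 and 884 counts in shCtrl and 36622, 34924 and 178 in shAC007128.1, so single samples of this table can differ sharply for 1 gene.

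Mesenchymal regulators, which OVOL1 and GRHL2 oppose, moved in both directions, with 7 of 11 tested, 1 higher and 1 lower by both limits, and a median log2 fold change of 0.06. By the adjusted p alone 2 were higher and 1 lower. Of all genes tested, 5.57% were higher and 10.1% lower by both limits, and 21% and 19.8% by the adjusted p alone. SNAI2, a repressor of E-cadherin, fell from 70.4 ± 1.90 to 30.5 ± 3.33 CPM (log2 fold change -1.21, SE 0.10, adjusted p = 0.00014). ZEB1, another such repressor, rose from 2.60 ± 0.282 to 6.45 ± 0.863 CPM (log2 fold change 1.31, SE 0.18, adjusted p = 0.00114). FN1, encoding fibronectin, was at 87.1 ± 2.72 and 79.4 ± 5.59 CPM and did not pass (log2 fold change -0.13, SE 0.08, adjusted p = 0.231).

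**Figure D4:**
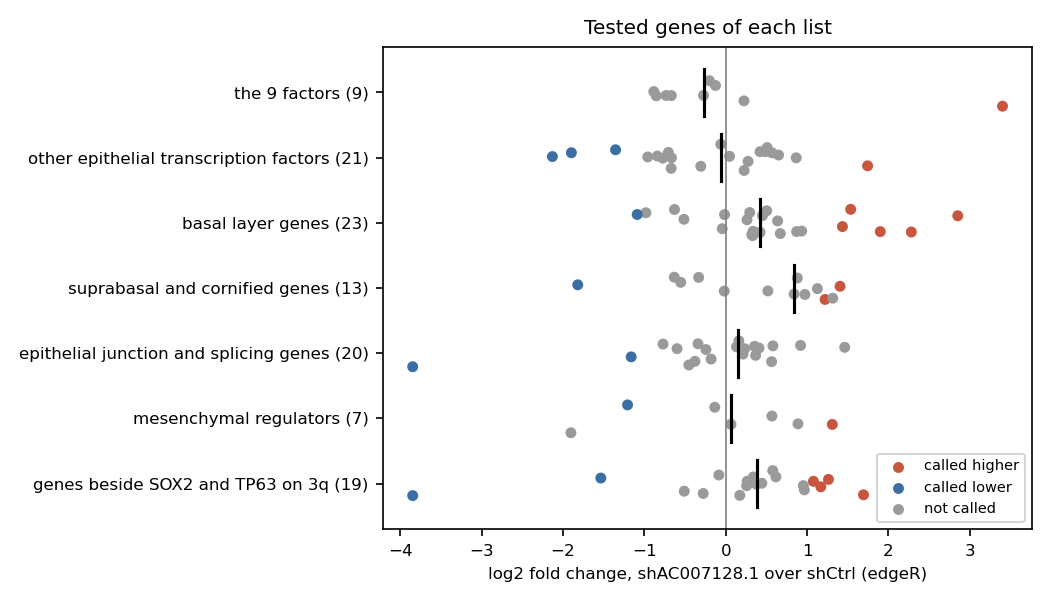
Log2 fold change, shAC007128.1 over shCtrl, of the tested genes in each list, with the number tested in parentheses, colored by call and with a black line at the median. The median was -0.27 for the 9 factors and 0.42 for basal layer genes, beside -0.0236 over all genes tested.

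SOX2 and TP63 share the long arm of chromosome 3, so 19 genes of that region were counted. All were tested, 4 rose and 2 fell by both limits, and by the adjusted p alone 12 were higher and 4 lower, with a median log2 fold change of 0.38. Across all genes tested, 5.57% were higher and 10.1% lower by both limits, 21% and 19.8% by the adjusted p alone, and the median was -0.0236. USP13, a deubiquitinase, rose from 21.8 ± 1.74 to 70.6 ± 7.60 CPM (log2 fold change 1.69, SE 0.11, adjusted p = 6.26e-05). FXR1, an RNA-binding protein, rose from 107 ± 15.3 to 241 ± 12.4 CPM (log2 fold change 1.17, SE 0.11, adjusted p = 0.000272), and ECT2, which acts in cell division, from 102 ± 1.63 to 216 ± 33.9 CPM (log2 fold change 1.08, SE 0.11, adjusted p = 0.0004). Without shAC007128.1 replicate 3 the log2 fold change of ECT2 was 0.94, short of the fold limit. The rise of SOX2 was larger than that of any of these 19 genes. Besides CLDN1, the second lower gene was TPRG1, named after its value was seen (log2 fold change -1.54, SE 0.31, adjusted p = 0.00702). With CLDN1 lost without any of the 5 samples given above, 1 lower gene was left.

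Within 1000 kb of SOX2, 4 genes were tested. FXR1 was called higher, whereas DNAJC19 (log2 fold change 0.08, adjusted p = 0.565 in edgeR), SOX2-OT and the lncRNA gene ENSG00000145075 (log2 fold change -1.09, adjusted p = 0.605) did not pass. Of the genes whose span reached within 1000 kb of the TP63 start, 8 were tested. LPP, whose own start lies beyond that distance, was called higher, and TPRG1 and CLDN1 were called lower. LPP, an adhesion protein gene named here as a neighbor, had 4110, 10538 and 6510 counts in shAC007128.1 (log2 fold change 1.26, SE 0.31, adjusted p = 0.015), and without shAC007128.1 replicate 2 its log2 fold change was 0.83 (adjusted p = 0.0167). Its adjusted p was 0.0505, 0.0508 and 0.0518 without shCtrl replicates 1, 2 and 3. The size of the change at SOX2 was therefore not shared by the tested genes around it.

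Factors and markers of glandular and intestinal epithelium were counted next. Of these 13 genes 2 were tested, and 0 were called by both limits in edgeR. By its adjusted p alone 1 was lower, the same gene that was at an unadjusted p below 0.05. Over all genes tested, 19.8% were lower by the adjusted p alone. FOXA1, a foregut pioneer factor, was at 17.3 ± 1.15 and 11.8 ± 0.508 CPM and fell by the adjusted p alone (log2 fold change -0.55, SE 0.11, adjusted p = 0.00648). GATA6, an endodermal factor, was at 15.7 ± 0.514 and 17.5 ± 0.400 CPM (log2 fold change 0.16, SE 0.10, adjusted p = 0.236). None of 5 glandular markers exceeded 1 CPM in all samples, CDX2 was at 0 counts in every sample, and their summed level was 0.0683 to 0.361 CPM in shCtrl and 0 to 1.79 CPM in shAC007128.1.

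Markers of leukocytes, fibroblasts and endothelium were examined as well. Of 12 such genes 7 were tested, 1 rose and 2 fell by both limits, 3 did not pass the adjusted p, and the median log2 fold change was 0.33. By both limits 5.57% of all genes tested were higher and 10.1% lower. Leukocyte markers summed to 59.1 to 68.0 CPM in shCtrl and 14.5 to 23.8 CPM in shAC007128.1, nearly all of it CD68, which fell from 63.8 ± 4.47 to 17.5 ± 5.27 CPM (log2 fold change -1.87, SE 0.21, adjusted p = 0.000458). PTPRC, the defining leukocyte marker, had 0 to 9 counts in any sample. Fibroblast markers summed to 15.3 to 16.1 CPM in shCtrl and 20.9 to 23.9 CPM in shAC007128.1, mostly COL1A1 (log2 fold change 0.33, SE 0.11, adjusted p = 0.0462), while COL1A2 had 4 counts in 1 sample and 0 in the others. LUM, a matrix proteoglycan, rose from 1.07 ± 0.411 to 4.71 ± 0.715 CPM (log2 fold change 2.14, SE 0.33, adjusted p = 0.00193). PDGFRB, a receptor of pericytes, was at 0.470 ± 0.146 and 0.154 ± 0.0753 CPM (log2 fold change -1.60, SE 0.53, adjusted p = 0.0474), and it was not called with DESeq2 (adjusted p = 0.0855) or limma-voom (0.0539). The adjusted p of PDGFRB was above 0.05 without each of the shCtrl replicates 1 (0.103), 2 (0.186) and 3 (0.0778) and the shAC007128.1 replicates 1 (0.111) and 3 (0.101). Without shAC007128.1 replicate 2, 4 genes of the list were called lower. Endothelial markers summed to 2.12 to 3.11 CPM in shCtrl and 0.302 to 2.02 CPM in shAC007128.1. CD3E (log2 fold change 0.61, SE 0.52, adjusted p = 0.394) and PECAM1 (log2 fold change 1.49, SE 0.95, adjusted p = 0.251) did not pass, and DCN, at 5 to 8 counts, was not tested. VWF, the von Willebrand factor of endothelium, had 138, 197 and 149 counts in shCtrl and 13, 90 and 32 in shAC007128.1, and did not pass in edgeR (log2 fold change -1.43, SE 0.61, adjusted p = 0.101). It was called lower with DESeq2 (adjusted p = 0.0297), with limma-voom (0.028) and without shAC007128.1 replicate 2 in edgeR (0.00721). CDH5, the endothelial cadherin, had 14, 10 and 44 counts in shCtrl and 0 in each shAC007128.1 sample. It did not pass the filter and was called lower with DESeq2 (adjusted p = 0.000396). COL3A1 had 16, 0 and 4 counts in shCtrl and 0 in each shAC007128.1 sample. The part of these markers in the changes of the 9 factors was not tested.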

How the data were processed

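RNA-seq of 3 shCtrl and 3 shAC007128.1 KYSE150 samples was re-analysed from the authors' table of estimated counts per Ensembl gene, deposited without normalization as whole numbers. The authors filtered reads, mapped them to hg38 with TopHat and derived FPKM with Cufflinks. Per the labels' processing notes, CASAVA 1.8 and TopHat2 2.0.6 were used. The counting program, annotation and strand use are not given in the sources used here. Low counts pile up at multiples of 4. Samples were grouped by their titles and descriptions, with 0 sample columns left unmapped. The growth text of every sample names shCtrl and the treatment text shAC007128.1, so those fields do not separate the groups.

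Names, positions and exonic lengths for TPM came from GENCODE v44, which held 60357 of the 67140 identifiers (89.9%). Promoters came from RefSeq (GRCh38.p14) and were found for 6 of the 9 factors. Genes were filtered with filterByExpr, which removed 47886, scaled by TMM (factors 0.9668 to 1.042) and tested with edgeR 4.0.16 (glmQLFit, glmQLFTest) in R 4.3.3. Intervals are 95% confidence intervals, and 3 counts (0.0373 to 0.0546 CPM) were the smallest detectable level, for counting error only. The steps were tested on simulated counts.

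The factors and lists were chosen with earlier results of these data known. Named genes are the 9 factors, AC007128.1, the 3 called genes of smallest p in each list (with fewer called, also the 2 of highest level), every gene of the glandular and other-cell lists above the smallest detectable level in all samples, the 3 genes most like TP63 in log2 CPM (mean at least 1), and genes overlapping a factor. Alternatives were DESeq2 1.42.0, limma-voom (limma 3.58.1), DESeq2 size factors, counts divided by 4, a minimum of 10 counts in all samples, no filter, scaling by library size alone, thinned libraries, the replicate block, glmTreat against a fold of 1.5 and each sample left out.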

Additional observations from a re-analysis of the deposited data

How the results depend on the processing

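SOX2 was called in every alternative fit, with log2 fold changes of 3.24 to 3.67. KLF4 (-0.96 to -0.83) passed the adjusted p in every one, and TFAP2A (-0.81 to -0.70) in all but glmTreat against a fold of 1.5 (adjusted p = 0.0821, against 0.0121 for KLF4). Factors lower by the adjusted p numbered 4, but 2 with DESeq2 or with no filter, and 2 to 4 with each sample left out, GRHL3 and ZNF750 being the ones lost with DESeq2 (adjusted p = 0.0574 and 0.0796). The cause was not tested. With limma-voom, ZNF750 had an adjusted p of 0.054. Factors called lower by both limits numbered 0, and 0 to 1 with a sample left out. The glmTreat counts, here and below, took its adjusted p against a fold of 1.5 without the log2 limit of 1. By that rule 1 factor was lower, KLF4 (log2 fold change -0.88). TP63 ranged from -0.44 to 0.087 with a sample left out. Basal genes called lower were 2 in place of 1 with DESeq2, no filter, library size only, a minimum of 10 counts, counts divided by 4 and glmTreat (1 to 2 with a sample left out). Suprabasal genes called higher were 1 with no filter (1 to 3 with a sample left out), and those called lower were 0 with glmTreat (0 to 1). Junction genes called higher were 1 with glmTreat. Junction genes and chromosome 3 genes called lower were each 1 in place of 2 with at least 10 counts, counts divided by 4 and glmTreat (1 to 2 with a sample left out), since CLDN1 was no longer tested in the former pair. Other cell type genes called lower were 1 in place of 2 with at least 10 counts, counts divided by 4, thinned libraries and glmTreat (1 to 4 with a sample left out), and 3 with DESeq2. PDGFRB was also lost with no filter (adjusted p = 0.0792), where CDH5 was called in its place. Over all genes, 899 to 1193 were called higher and 1518 to 2242 lower, and 970 to 1068 and 1586 to 2023 with a sample left out. The ends 1193 and 1518 are the glmTreat counts. AC007128.1 ranged from -1.29 to -0.51 with a sample left out (adjusted p = 0.0959 to 0.562).

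With the replicate number as a block, 2 factors were lower by the adjusted p, GRHL3 (0.0846) and ZNF750 (0.0934) being lost, PDGFRB (0.0778) was lost and VWF (0.0445) gained, and over all genes 977 were higher and 1692 lower. Over all genes tested, same-numbered samples did not deviate together (correlations 0.045, -0.0498 and -0.0555). These correlations cannot exclude a link between same-numbered samples in part of the genes.

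Depth limits the low factors. SOX2 in shCtrl, GRHL3 and ZNF750 rest on 24 to 230 counts, and AC007128.1 on 15 to 69 counts. Library size alone shifts the median log2 fold change of all genes by -0.0739.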
